A study of Mus musculus with 6 samples.

Results

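NRF2, the protein of *Nfe2l2*, is a transcription factor that turns on genes for glutathione, thioredoxin and peroxiredoxin chemistry, for NADPH supply and for heme and bile pigment handling. In resting cells KEAP1 binds NRF2 and sends it for degradation, and oxidants or electrophiles that modify KEAP1 set NRF2 free to enter the nucleus, where it pairs with a small MAF protein on antioxidant response elements, while BACH1 competes for the same sites as a repressor. NADPH pays for the whole system, since glutathione reductase and the thioredoxin reductases both draw on it, and macrophages that produce oxidants and take up dead cells and iron in a healing infarct are a cell type in which these genes are active. Described here are 40 genes of this network, chosen by symbol: 7 regulators, 5 genes of glutathione synthesis and recycling, 5 glutathione-using enzymes and exporters, 10 genes of the thioredoxin and peroxiredoxin system, 3 superoxide dismutase and catalase genes, 5 genes of NADPH supply, 4 genes of quinone, heme and bile pigment handling, and *Osgin1*. They were chosen with earlier results of these data known. Each of the 40 symbols was found once among the 54532 genes counted.

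RNA was sequenced from Ly6G- CD11b+ cells, labelled cardiac macrophages, of infarcted C57BL/6 mouse hearts. The 3 ITGA5 fl/fl libraries came from mice that carry floxed alleles of the integrin α5 gene and no Cre, and the 3 Myα5KO libraries from mice with the same floxed alleles plus LyzM-Cre, which deletes the gene in lysozyme M-expressing myeloid cells, so granulocytes and monocytes are targeted as well as macrophages. All mice were 12 weeks old at permanent occlusion of the left anterior descending coronary artery and were sampled at 7 days, and hearts were digested mouse by mouse, although the labels do not name the animal behind each library, so p-values measure the spread between these libraries. No uninfarcted heart and no Cre-only control entered the comparison, so loss of integrin α5 and the presence of Cre in the *Lyz2* locus cannot be told apart.

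The libraries held 15424451 to 18152357 counted reads in the ITGA5 fl/fl group and 18232574 to 18419287 in the Myα5KO group, so each Myα5KO library was somewhat deeper than each control. *Itga5* averaged 607 ± 43.2 CPM (the CPM unit is depth-scaled reads of a gene, here with library sizes scaled by the trimmed mean of M values, TMM; mean ± SD, n = 3) in ITGA5 fl/fl cells and 48.7 ± 1.48 in Myα5KO cells, or 8.02% of control, and *Lyz2*, whose locus carries the Cre, stood at 53.0% of control. The summed level of 12 macrophage markers ranged from 25509 to 26137 CPM in ITGA5 fl/fl and from 20243 to 20689 CPM in Myα5KO libraries, and without *Lyz2* and *Cd14* from 13610 to 13830 CPM and from 12840 to 13339 CPM. Of these 12 markers *Lyz2* and *Cd14* were called lower, *Fcgr1* was called higher and 9, among them *Adgre1*, *Csf1r* and *Mertk*, were not called. Summed monocyte markers ranged from 1294 to 1453 CPM in ITGA5 fl/fl and from 1718 to 2001 CPM in Myα5KO libraries, with 4 of 8 called higher, and summed granulocyte markers from 44.1 to 69.4 CPM and from 92.5 to 219 CPM, with 8 of 10 tested called higher and *Ly6g* at or near 0 in all libraries. Summed T and NK cell markers ranged from 12.8 to 18.6 CPM and from 20.8 to 24.3 CPM, with 0 of 6 tested called by edgeR at an adjusted p of 0.05. At an unadjusted p under 0.05, 4 of the 6 were higher, as were 1692 of all 14522 tested genes. Summed fibroblast markers went the other way, from 1656 to 1943 CPM against 1245 to 1608 CPM with 2 of 10 called lower, as did summed cardiomyocyte markers, from 24.6 to 27.3 CPM against 16.1 to 21.1 CPM with 3 of 9 tested called lower. Of all tested genes edgeR called 5.19% lower and 3.56% higher at an adjusted p of 0.05. The sums of dendritic cell, B cell, endothelial and erythroid markers overlapped between the groups, and *Slc4a1* of the erythroid list was at 0 in every library. The part of these shifts in the results below was not tested, and in bulk RNA fewer cells of a type and less RNA per cell cannot be told apart.

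Part of the network was lower in the Myα5KO libraries. *Slc7a11*, *Srxn1*, *Txnrd1* and *Osgin1* fell to between 42.9% and 57.6% of control, while *Nfe2l2* itself, *Gpx1*, *Gpx4*, catalase and most of the NADPH-producing enzymes did not pass the test. All 40 genes passed the filter on low counts, and edgeR's quasi-likelihood test at an adjusted p of 0.05 over 14522 tested genes called 17 of them (42.5%) lower and 0 higher, with 23 not called. For comparison, the same test called 5.19% of all tested genes lower and 3.56% higher, or 8.75% in all. The 40 genes were chosen with earlier results of these data known, so the gap between these shares is a description and not independent support. At an unadjusted p under 0.05, 23 of the 40 genes were lower and 1, *Keap1*, was higher. At that cut 1661 of all 14522 tested genes were lower and 1692 higher. DESeq2 and limma-voom also called 0 of the 40 higher, although DESeq2 gave no adjusted p for *Me1* and *Nqo1*. The highest Myα5KO library lay below the lowest ITGA5 fl/fl library for 21 of the 40 genes, against 13.8% of all tested genes. For 1 of the 40, *Keap1*, the lowest Myα5KO library lay above the highest ITGA5 fl/fl library, against 14.9% of all tested genes. The median log2 fold change (Myα5KO over ITGA5 fl/fl) was -0.21 over the 40 genes and 0.01 over all tested genes, with 32 of the 40 below 0 and a range from -1.22 to 0.18. Together the 40 genes took 1.07% to 1.11% of counted reads in ITGA5 fl/fl libraries and 0.866% to 0.901% in Myα5KO libraries. These shares lean on the most abundant gene. *Sqstm1* alone held 44750 of the 165566 reads in ITGA5 fl/fl replicate 1 and 34306 of the 157890 in Myα5KO replicate 1. The count of genes called lower was 10 of 38 tested on log2 FPKM values (fragment counts scaled to gene length and depth), 11 without ITGA5 fl/fl replicate 3 and 12 with plain library-total scaling.

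**Figure D1:**
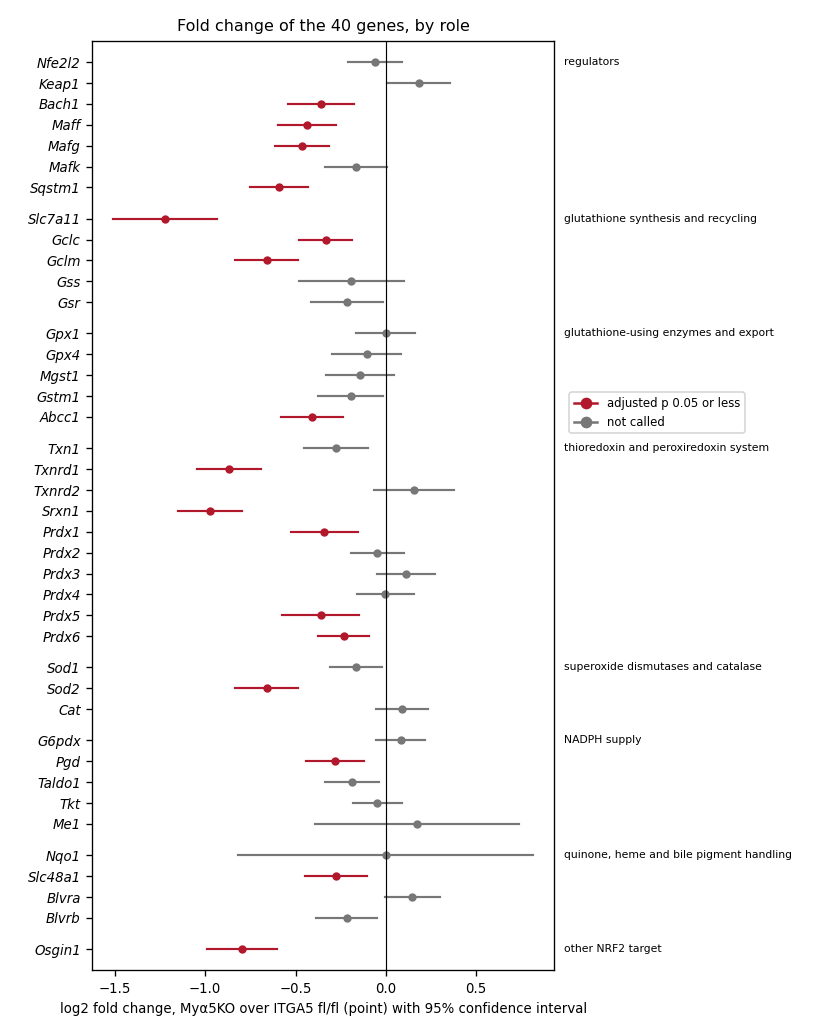
Log2 fold change (Myα5KO over ITGA5 fl/fl) of each of the 40 genes, in order of role, with points for the edgeR estimate and bars for its 95% confidence interval; red marks the 17 genes with an adjusted p of 0.05 or less and grey the other 23. All 17 red points lie below 0, from -1.22 for *Slc7a11* to -0.23 for *Prdx6*.

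The promoters were searched for the letters of the antioxidant response element, the sequence that NRF2 with a small MAF protein recognizes. RefSeq promoter sequences (GRCm38.p6; 250 bases before to 50 bases after each start site) were matched for 35 of the 40 genes, leaving *Gclc*, *Gsr*, *Abcc1*, *Prdx6* and *Slc48a1* without an entry. The letters TGACNNNGC, on either strand, were present in promoters of 14 of the 35 genes (40%) and of 14% of 27025 genes with an entry. Counted by promoter, the shares were 29.8% of 47 and 12.4% of 32851. The 40 genes were chosen as genes of the NRF2 network, so the higher share is a description and not independent support. Of the 13 genes called lower that had an entry 7 held the letters, as did 7 of the 22 not called. The looser TGANNNNGC was found in 21 of the 35 (60%) and in 45% of all genes, and TGANTCA, the letters of an AP-1 element, in 4 of the 35 (11.4%) and in 8.97% of all. The matches in *Prdx1* and *Me1* overlap TGANTCA. The 29-base windows below are shown, with the matched letters in capitals, because they let the called genes be set beside genes of the same network that were not called, and each is written 5′ to 3′, with its position counted from the listed start it belongs to, along the strand that carries the match. Those of 5 genes called lower are:
*Maff* (chr15:79346499-79346527, plus strand, centred at position -108 from the start): gggcgtctcaTGACTCTGCcactggaaag
*Mafg* (chr11:120633751-120633779, plus strand, position -218): ctcgccgggtTGACCGTGCtcctgcagag
*Gclm* (chr3:122245413-122245441, minus strand, position -130): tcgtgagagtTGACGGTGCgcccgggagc
*Txnrd1* (chr10:82859104-82859132, minus strand, position -88): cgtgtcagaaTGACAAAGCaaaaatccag
*Prdx1* (chr4:116685456-116685484, minus strand, position -129): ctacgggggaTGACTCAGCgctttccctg
Those of 4 genes not called are:
*Nfe2l2* (chr2:75704885-75704913, minus strand, position -236): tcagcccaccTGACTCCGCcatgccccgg
*Mgst1* (chr6:138140461-138140489, minus strand, position -52): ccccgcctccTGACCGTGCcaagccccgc
*Sod1* (chr16:90220696-90220724, minus strand, position -52): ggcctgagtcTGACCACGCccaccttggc
*G6pdx* (chrX:74428919-74428947, plus strand, position -53): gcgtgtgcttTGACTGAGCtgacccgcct
*Mafk*, *Blvra* and *Me1*, also not called, held the letters too, and their windows are not shown. The letters thus occur both in genes that fell and in genes that did not. *Srxn1* and *Pgd*, which were called lower, held them only after the start site, and *Slc7a11*, *Sqstm1*, *Sod2*, *Osgin1*, *Bach1* and *Prdx5* had no match in this window. A match is a description of letters and not evidence of binding.

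Among the regulators, 4 of 7 were lower and the transcription factor itself was not among them. *Nfe2l2* (ENSMUSG00000015839, chr2:75675513-75704641 in GRCm38) measured 696, 694 and 639.6 CPM in control and 625, 647 and 673 CPM in knockout libraries. The groups overlapped, and the log2 fold change was -0.06 (95% confidence interval -0.21 to 0.09) with an edgeR adjusted p of 0.649. *Keap1* (ENSMUSG00000003308, chr9:21229730-21239361), the adaptor that targets NRF2 for degradation, was at 24.5, 26.9 and 24.6 CPM in control and 28.4, 28.6 and 29.3 CPM in knockout libraries. All 3 knockout values lay above all 3 controls, by a log2 difference of 0.18 with an edgeR adjusted p of 0.191, and 10.9% of its exonic bases are also covered by *Gm16754* on the opposite strand. Whether strand was used in counting is not given in the sources used here, so reads in such an overlap may belong to either gene.

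*Bach1* (ENSMUSG00000025612, chr16:87698945-87733346), which encodes the repressor, was at 772, 666 and 708 CPM in ITGA5 fl/fl and 583, 598 and 492 CPM in Myα5KO cells. It fell by 0.36 on the log2 scale (SE 0.09, edgeR adjusted p = 0.0209) without overlap, and the call was lost without ITGA5 fl/fl replicate 1 or replicate 3. *Mafg* (ENSMUSG00000051510, chr11:120625117-120633600) measured 185, 196 and 205 CPM against 132, 149 and 143 CPM. *Maff* (ENSMUSG00000042622, chr15:79346621-79359076) measured 251, 247 and 257 CPM against 166, 193 and 199 CPM. Both small MAF partners, which lack a transactivation domain and pair with NRF2 or BACH1 on DNA, were clearly separated. The log2 differences in the edgeR fit were -0.46 (SE 0.07, adjusted p = 0.00143) for *Mafg* and -0.44 (SE 0.08, adjusted p = 0.00362) for *Maff*. The remaining small MAF gene, *Mafk*, had 201, 184 and 189.6 CPM and 150.2, 178 and 184 CPM, groups that touched without overlapping and a log2 difference of -0.17 that was not called (edgeR adjusted p = 0.232).

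*Sqstm1* (ENSMUSG00000015837, chr11:50199366-50210827), the autophagy receptor p62 that binds KEAP1 and is also an NRF2 target, was the most abundant of the 40 genes per length of transcript, with a mean of 861 FPKM in control and 569.7 FPKM in knockout cells. Its levels were 2999.5, 2872 and 2836 CPM in ITGA5 fl/fl libraries and 1826, 2038 and 1917 CPM in Myα5KO libraries. No knockout library reached a control library, and the fall was 0.59 on the log2 scale (SE 0.07, edgeR adjusted p = 0.000418). *Mrnip* overlaps 17.3% of its exonic bases on the opposite strand.

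In glutathione synthesis and recycling 3 of 5 genes were lower, and these were the cystine importer and both chains of the rate-limiting ligase. *Slc7a11* (ENSMUSG00000027737, chr3:49892526-50443614), the xCT chain that exchanges glutamate for cystine and so brings in the cysteine for glutathione, had the lowest fold change of the 40 genes. It measured 141, 149 and 169.7 CPM in ITGA5 fl/fl libraries and 72.7, 76.5 and 48.1 CPM in Myα5KO libraries. The groups were wide apart, with Myα5KO replicate 3 the lowest library, and the fall was 1.22 on the log2 scale (SE 0.13, adjusted p = 0.000188 by edgeR).

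*Gclm* (ENSMUSG00000028124, chr3:122245557-122270732), the modifier subunit of glutamate-cysteine ligase, was at 85.1, 85.9 and 97.1 CPM in control and 59.1, 59.9 and 50.8 CPM in knockout cells. It fell by 0.66 on the log2 scale (SE 0.08, edgeR adjusted p = 0.000344). *Gclc* (ENSMUSG00000032350, chr9:77754535-77794485), the catalytic subunit of the same enzyme, was at 88.1, 87.5 and 89.7 CPM and 65.7, 75.7 and 69.4 CPM. Its fall was 0.33 (SE 0.07, edgeR adjusted p = 0.00917), its control libraries lay within a few CPM of each other and no library crossed between the groups. Glutathione synthetase *Gss*, which adds the glycine, was low in both groups, with 11.1, 11.5 and 13.5 CPM against 8.68, 11.5 and 11.5 CPM, and glutathione reductase *Gsr*, which regenerates reduced glutathione from NADPH, had 54.3, 55.8 and 68.4 CPM against 55.8, 50.5 and 47.5 CPM. Both overlapped between the groups, with log2 differences of -0.19 and -0.22 (edgeR adjusted p = 0.431 and 0.178).

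Of the genes that use or export glutathione 1 of 5 was called. *Gpx1*, the peroxidase of hydrogen peroxide, averaged 500.3 FPKM in control and 498 FPKM in knockout cells, with 683, 767 and 723 CPM against 703, 686 and 783 CPM. Its confidence interval of -0.16 to 0.16 on the log2 scale bounds any change in either direction to a small one. *Gpx4*, the lipid hydroperoxide peroxidase, had 155, 177 and 189.9 CPM and 151, 153 and 182 CPM, with an interval of -0.30 to 0.09. Of the 50-base stretches (words) of its transcripts 34.7% are shared with other genes, mostly the pseudogene *Gpx4-ps2*, so the division of its reads is uncertain. *Mgst1*, a microsomal glutathione transferase, had 42.6, 47.2 and 46.2 CPM and 41.5, 36.2 and 45.5 CPM, which overlapped at a log2 difference of -0.14. *Gstm1*, a cytosolic transferase with 18.9% of words shared with relatives, had 63.2, 61.7 and 76.0 CPM and 58.9, 55.4 and 61.3 CPM, which did not overlap at -0.19. Neither transferase passed the test (edgeR adjusted p = 0.357 and 0.177). *Abcc1* (ENSMUSG00000023088, chr16:14361558-14475737), the MRP1 pump that exports oxidized glutathione and glutathione conjugates, was the gene called, with 138, 139.7 and 158 CPM in ITGA5 fl/fl and 116, 115 and 97.5 CPM in Myα5KO libraries. It fell by 0.41 (SE 0.08, edgeR adjusted p = 0.00706) with no overlap.

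The thioredoxin and peroxiredoxin group held the smallest p-values of the 40 genes. *Srxn1* (ENSMUSG00000032802, chr2:152105516-152111376), sulfiredoxin, which repairs overoxidized peroxiredoxins, was at 329, 326 and 342 CPM in ITGA5 fl/fl libraries and 168, 189.7 and 149.7 CPM in Myα5KO libraries. The 3 controls agreed closely and every knockout library was far below them, with a fall of 0.97 on the log2 scale (SE 0.08, adjusted p = 2.81e-05 by edgeR). *Txnrd1* (ENSMUSG00000020250, chr10:82833951-82897712), the cytosolic thioredoxin reductase, measured 1067, 1049.7 and 1088 CPM and 589, 648 and 519 CPM. It fell by 0.87 (SE 0.08, edgeR adjusted p = 6.53e-05), to 54.8% of control. Its mitochondrial relative *Txnrd2* was at 12.8, 14.6 and 13.7 CPM and 15.8, 15.8 and 14.3 CPM, overlapping, with a log2 difference of 0.15 (edgeR adjusted p = 0.398).

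Thioredoxin itself, *Txn1*, had 169, 189 and 199 CPM in control and 146, 143 and 170.4 CPM in knockout cells. It missed the threshold with a log2 fold change of -0.28 and an edgeR adjusted p of 0.0555, and it was called in 7 of 17 alternative fits. Of the 6 peroxiredoxins 3 were called lower, none of them in every fit. *Prdx1* (ENSMUSG00000028691, chr4:116685544-116700822) was at 661, 737 and 826 CPM and 554, 573 and 629 CPM, *Prdx5* (ENSMUSG00000024953, chr19:6906697-6910106) at 179, 232 and 237 CPM and 158, 163 and 184 CPM, and *Prdx6* (ENSMUSG00000026701, chr1:161240112-161251219) at 121, 128 and 137 CPM and 110.2, 109.7 and 109 CPM. Of these peroxide reductases *Prdx5* overlapped between the groups, and the falls were 0.34, 0.36 and 0.23 on the log2 scale (edgeR adjusted p = 0.0267, 0.0365 and 0.0393). *Prdx1* shares 8.29% of its words with other genes, and *Trmt112* covers 19.1% of *Prdx5* exonic bases on the opposite strand. The other peroxiredoxins overlapped between the groups and were not called. Cytosolic *Prdx2* had 105, 120.5 and 119.7 CPM and 111, 109.6 and 113 CPM, mitochondrial *Prdx3* 34.1, 33.4 and 37.1 CPM and 38.1, 37.9 and 37.0 CPM, and *Prdx4* of the endoplasmic reticulum 38.1, 38.8 and 40.9 CPM and 37.6, 41.5 and 38.4 CPM. Their 95% confidence intervals on the log2 scale were -0.20 to 0.10, -0.05 to 0.27 and -0.16 to 0.15.

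**Figure D2:**
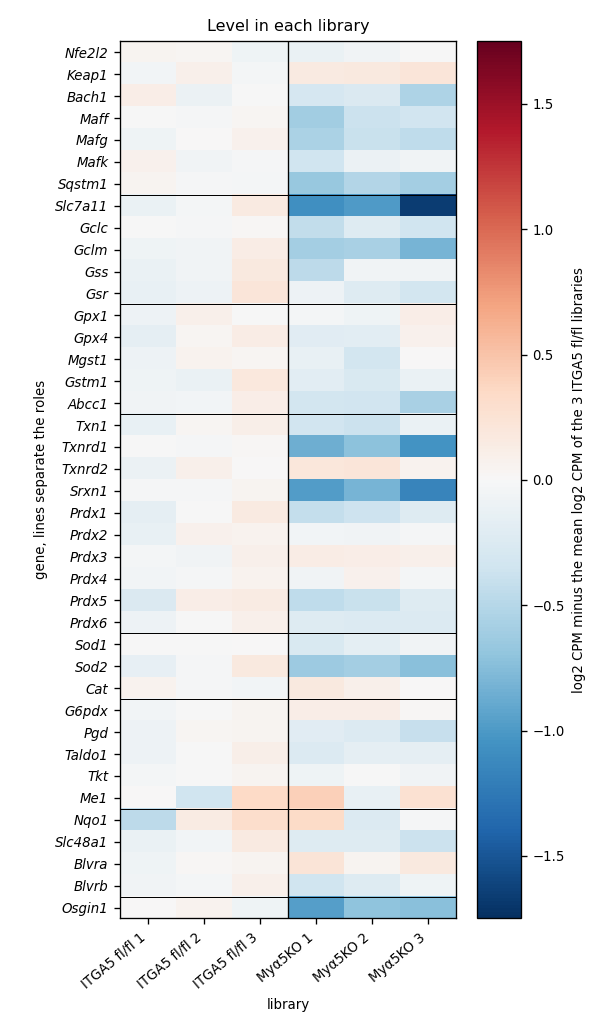
Level of each of the 40 genes in each library, as log2 CPM minus the mean log2 CPM of the 3 ITGA5 fl/fl libraries of that gene; blue is lower, red is higher, and lines separate the roles and the genotypes. The Myα5KO columns are blue for the *Slc7a11*, *Srxn1*, *Txnrd1* and *Osgin1* rows, with Myα5KO replicate 3 the deepest for *Slc7a11*, while *Nfe2l2*, *Gpx1* and *Prdx4* stay near the control colour.

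Of the superoxide dismutases the mitochondrial enzyme *Sod2* (ENSMUSG00000006818, chr17:13006846-13040063) was lower. It had 177, 192 and 219.6 CPM in ITGA5 fl/fl libraries and 125, 130.0 and 118 CPM in Myα5KO libraries. No knockout library reached the lowest control, and the fall was 0.66 on the log2 scale (SE 0.08, edgeR adjusted p = 0.000358). Of its words 21% are shared with 202 other genes, so the division of its reads is uncertain. The cytosolic *Sod1* had 181, 181 and 183 CPM and 151, 160.5 and 174 CPM. Its groups did not overlap, but the log2 fold change of -0.17 was not called (edgeR adjusted p = 0.155) except without Myα5KO replicate 3. Catalase, *Cat*, had 110.1, 103 and 102 CPM and 118, 112 and 105 CPM, an overlapping difference of 0.09.

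In NADPH supply 1 of 5 genes was called lower and the median log2 fold change was -0.05. *G6pdx*, the committing enzyme of the pentose phosphate pathway, had 82.6, 85.0 and 88.6 CPM in control and 92.5, 92.1 and 86.7 CPM in knockout cells, a log2 fold change of 0.08 (95% confidence interval -0.05 to 0.22), with *Ikbkg* covering 13.6% of its exonic bases on the opposite strand. The next oxidative enzyme, *Pgd* (ENSMUSG00000028961, chr4:149149991-149166771), was at 351, 380.3 and 385 CPM and 323, 315 and 280.1 CPM. It fell by 0.28 (SE 0.07, edgeR adjusted p = 0.0307) with no overlap, and its call rested on replicates 2 and 3 of both genotypes, being lost when any of those 4 libraries was omitted. In the nonoxidative branch *Taldo1* (transaldolase, 251, 265 and 286 CPM against 225, 240.3 and 239 CPM) was separated without being called, at -0.19, and *Tkt* (transketolase, 309, 315 and 328 CPM against 301, 316 and 305 CPM) overlapped at -0.05. Malic enzyme *Me1* was barely expressed, at a mean of 1.91 ± 0.462 CPM in control and 2.16 ± 0.405 CPM in knockout cells, and its interval of -0.39 to 0.74 means that a modest change in either direction was not detectable at this depth. Of the words of *Me1* 22.9% are shared with 2 other genes, so the division of its few reads is also uncertain.

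*Nqo1*, a quinone reductase often used as a readout of NRF2, was also close to absent, with 0.737, 1.12 and 1.25 CPM in ITGA5 fl/fl and 1.28, 0.856 and 0.999 CPM in Myα5KO libraries. With so few reads its interval ran from -0.82 to 0.82, so neither a rise nor a fall of the size seen in *Osgin1* could be detected. *Slc48a1* (ENSMUSG00000081534, chr15:97778520-97792692), the transporter HRG1 that moves heme out of the phagolysosome, had 156, 165 and 189.8 CPM and 145, 145 and 131 CPM. It fell by 0.28 with an edgeR adjusted p of 0.0455, but its call was lost in 11 of 17 alternative fits. *Blvra*, biliverdin reductase A, had 47.8, 50.9 and 51.8 CPM and 58.3, 51.7 and 56.5 CPM, and *Blvrb*, which reduces flavins and biliverdin, 86.1, 88.1 and 95.8 CPM and 70.4, 76.8 and 85.2 CPM. Their log2 fold changes were 0.15 and -0.22, with neither passing the test (edgeR adjusted p = 0.24 and 0.107). The groups overlapped for *Blvra* but not for *Blvrb*, which was called lower only without Myα5KO replicate 3. *Osgin1* (ENSMUSG00000074063, chr8:119434124-119446256), oxidative stress induced growth inhibitor, had 37.2, 38.8 and 35.1 CPM in control and 19.0, 22.7 and 22.2 CPM in knockout cells. Every knockout value lay far under every control value, a fall of 0.80 (SE 0.09, edgeR adjusted p = 0.000243).

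**Figure D3:**
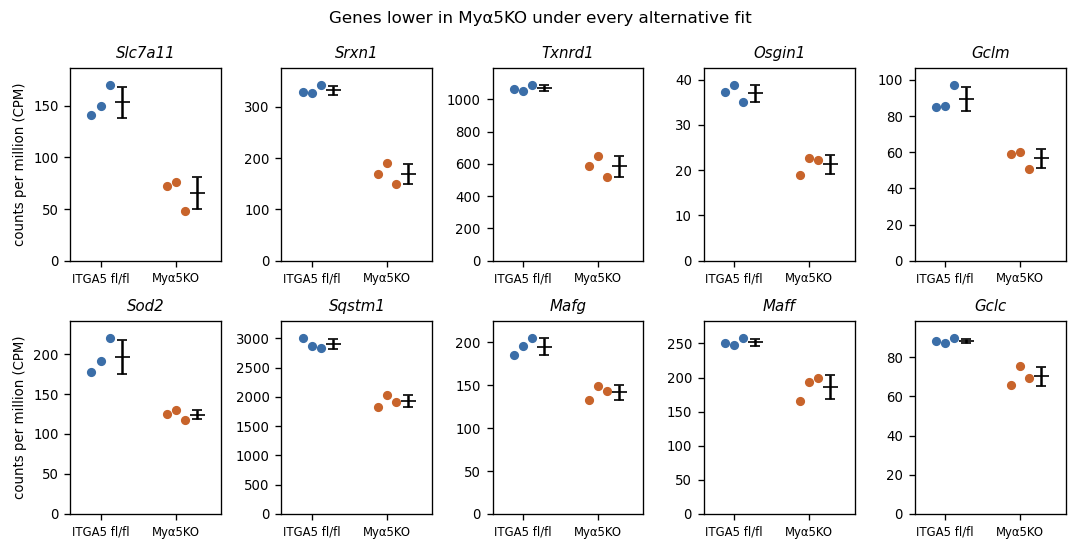
CPM in each library of the 10 genes that were lower in Myα5KO under all 17 alternative fits, with points for the 3 ITGA5 fl/fl (blue) and 3 Myα5KO (orange) libraries and bars for mean ± SD. In none of the 10 panels do the groups overlap, and *Sqstm1* is the highest panel at 2902 ± 86.0 and 1927 ± 106 CPM.

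The calls were not equally firm. Of the 17, 10 passed under all 17 alternatives, namely *Maff*, *Mafg*, *Sqstm1*, *Slc7a11*, *Gclc*, *Gclm*, *Txnrd1*, *Srxn1*, *Sod2* and *Osgin1*, and *Abcc1* also held whichever library was omitted and was lost only on the FPKM scales. Lost in at least one of the fits without a library were *Bach1*, *Prdx1*, *Prdx5*, *Prdx6*, *Pgd* and *Slc48a1*. In terms of level per length, the called genes ran from 9.58 FPKM for *Abcc1* to 861 FPKM for *Sqstm1* in control cells.

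**Figure D4:**
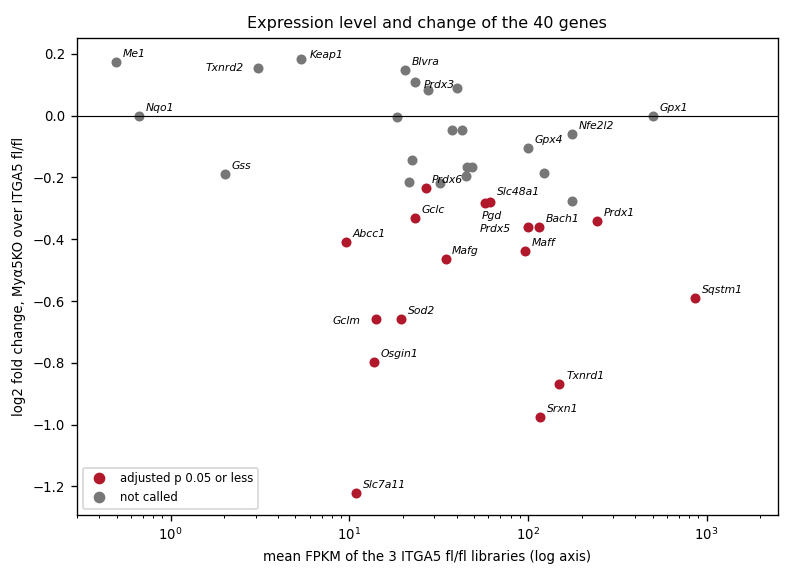
Log2 fold change (Myα5KO over ITGA5 fl/fl) against mean FPKM of the 3 ITGA5 fl/fl libraries on a log axis, 1 point per gene, red for the 17 genes with an adjusted p of 0.05 or less and grey for the other 23. Called genes span 9.58 to 861 FPKM, and uncalled genes such as *Gpx1* (500.3 FPKM) and *Nfe2l2* (177 FPKM) sit near 0 at comparable levels.

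Other genes of the same pathways were taken as 118 further symbols, of which *Nnt* is listed under 2 identifiers, and 99 of these 119 rows were tested. The median log2 fold change of the tested rows was -0.0047, and 7 were called lower and 3 higher, against 5.19% and 3.56% of all tested genes. Among the called genes the largest fall was in *Hmox1* and the largest rise in *Sesn1*. *Hmox1* (ENSMUSG00000005413), heme oxygenase 1, had 1868, 2166 and 2640.3 CPM in ITGA5 fl/fl and 1240.1, 1470.1 and 1232 CPM in Myα5KO libraries, which did not overlap, a fall of 0.76 (SE 0.11, edgeR adjusted p = 0.00143). *Fth1*, the ferritin heavy chain, had 8281, 8409.6 and 8671 CPM and 6142, 6553 and 6321 CPM, likewise without overlap, a fall of 0.42 (edgeR adjusted p = 0.00508). The ferritin light chain *Ftl1* differed by -0.08 and was not called (edgeR adjusted p = 0.691). *Slc3a2*, the heavy chain that partners *Slc7a11* at the cell surface, had 809, 756 and 766 CPM and 611, 675 and 664 CPM, no overlap and a fall of 0.26 (edgeR adjusted p = 0.0357). Also called lower were *Esd* (a formylglutathione hydrolase, -0.42), *Gpx3* (the secreted glutathione peroxidase, -0.29), *Sod3* (the extracellular superoxide dismutase, -0.45) and *Tbk1* (a kinase that phosphorylates p62, -0.27).

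The genes called higher were *Sesn1*, *Btrc* and *Txnip*. *Sesn1*, a sestrin that restrains TORC1 and takes part in peroxiredoxin regeneration, had 29.0, 31.6 and 26.6 CPM in control and 43.8, 48.1 and 58.9 CPM in knockout libraries. Its values did not overlap, and it rose by 0.79 (SE 0.11, edgeR adjusted p = 0.000712). *Txnip*, which binds and inhibits thioredoxin, had 91.6, 103 and 88.5 CPM and 107, 123 and 153 CPM, no overlap and a rise of 0.43 (edgeR adjusted p = 0.0244). *Btrc*, an F-box protein that marks NRF2 for degradation independently of KEAP1, rose by 0.44 (edgeR adjusted p = 0.0184). Among the 16 tested further genes of NADPH supply edgeR called 0 in either direction. At an unadjusted p under 0.05, 3 of the 16 passed, all higher, against 1692 higher among all 14522 tested genes. Of the 10 called further genes *Hmox1*, *Fth1*, *Esd* and *Sesn1* were called whichever library was omitted, while *Slc3a2*, *Gpx3*, *Sod3*, *Tbk1*, *Txnip* and *Btrc* each lost the call without at least 1 library.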

How the data were processed

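Per the labels and the study's methods, the authors aligned paired 150-base reads of poly(A) RNA from Ly6G- CD11b+ cells to GRCm38.p6 with TopHat2 2.0.9, counted reads per gene with HTSeq 0.6.1 (deposited counts, not normalized) and computed the deposited FPKM from these counts; Cufflinks 2.1.1 was used by the authors to assemble mapped reads. Strand and multiply mapped read settings are not given in the sources used here. Genes were filtered with filterByExpr (minimum count 10, minimum total 15), leaving 14522, scaled by TMM and tested with edgeR 4.0.16 (R 4.3.3; glmQLFit and glmQLFTest, no covariate), with Benjamini-Hochberg adjustment over all tested genes and an adjusted p of 0.05 or less as the call. The depth behind each value is given with the libraries. The test was tried on simulated counts of 14522 genes with 200 changed. All changes of 2-fold or more and 85.3% of smaller changes were recovered, and 9 of 199 calls were false. Every simulated gene had the same dispersion, and only genes above a set level were changed. The smaller changes were all of the same size, larger than the falls of called genes such as *Prdx6*. These rates therefore do not describe calls of small changes or of low genes here. Alternatives were DESeq2 1.42.0, limma 3.58.1 (voom, and on log2(FPKM + 1) and log2(FPKM + 0.1) with FPKM of at least 1 in 3 libraries), other scalings, other filters, a replicate block, 6 fits each leaving out a library, and an adjusted p of 0.01. The text names all 40 genes, *Itga5* and *Lyz2*, the called genes among 118 further pathway symbols with *Hmox1*, *Fth1* and *Ftl1*, and defining markers of other cell types. The genes and lists were chosen with earlier results of these data known, so no test over the list alone was made. Exons and coordinates follow GENCODE M21, and shared words are 50-base stretches of transcripts found in more than 1 gene. Columns of the authors' own comparisons were not used.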

Additional observations from a re-analysis of the deposited data

How the results depend on the processing

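The 10 genes named as firm kept their direction and their call under all 17 alternatives. Genes of the 40 called lower (17) came to 10 and 10 on log2(FPKM + 1) and log2(FPKM + 0.1), where 38 were tested without *Me1* and *Nqo1*, 11 at an adjusted p of 0.01, and 11 to 17 when a library was left out, with 11 without ITGA5 fl/fl replicate 3 and 12 with library-total scaling. No alternative called any of those it tested higher (0 throughout), and DESeq2 gave no adjusted p for *Me1* and *Nqo1*. Further pathway genes called lower (7) came to 3 and 3 on the FPKM scales, where 88 instead of 99 were tested, 3 with library totals, 3 at 0.01 and 3 to 6 without a library (3 without ITGA5 fl/fl replicate 1, replicate 3 or Myα5KO replicate 2, and 4 without Myα5KO replicate 1). Those called higher (3) came to 1 and 1 on the FPKM scales, 10 with library totals, 1 at 0.01 and 1 to 4 without a library, with 1 without Myα5KO replicate 3. All called genes (1271) came to 472 and 448 on the FPKM scales, 470 at 0.01, 1730 with library totals, 1738 without a count filter and 616 to 1091 without a library (616 and 723 without ITGA5 fl/fl replicates 3 and 2, 819 without Myα5KO replicate 2). With library totals the median of the 40 was -0.12 against -0.21, the median of all genes moved from 0.01 to 0.10, and 70.1% instead of 40.7% of calls were higher. The FPKM fits tested 11495 genes. The cause of the other shifts was not tested.

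Sign changes (19) touched genes without a call. With library totals *Nfe2l2* was 0.0198, *Gpx1* 0.0806, *Prdx2* 0.0333, *Prdx4* 0.0766 and *Tkt* 0.0331. *Gpx1* was 0.00637 without a count filter and ran from -0.0603 to 0.0420 when a library was left out, above 0 without ITGA5 fl/fl replicate 2 or Myα5KO replicate 1 or 2. *Prdx4* was 0.00286 without a filter and ran from -0.0508 to 0.0261, above 0 without ITGA5 fl/fl replicate 3 or Myα5KO replicate 1 or 3. *Nqo1* was -0.00981 with median-ratio scaling, -0.00835 with upper-quartile scaling, -0.0170 with 10 counts in every library, and ran from -0.182 to 0.159, below 0 without ITGA5 fl/fl replicate 1 or Myα5KO replicate 1. *Ftl1* ran from -0.145 to 0.0357, above 0 only without ITGA5 fl/fl replicate 3.

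The replicate numbers gave no sign of pairing, since deviations of same-numbered samples correlated at 0.0518, -0.0749 and 0.0412. With the replicate block 16 of the 40 were lower, losing *Prdx6* and *Slc48a1* and gaining *Txn1*, further pathway genes counted 6 lower and 3 higher, and all calls 1181. With 3 libraries a group, genes near 1 CPM such as *Nqo1* and *Me1* had wide intervals.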

Other observations

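Ratios between partners were also computed from FPKM, for pairs chosen after their values were seen, so they carry no test. The ratio of *Txnrd1* to *Txnrd2*, cytosolic to mitochondrial thioredoxin reductase, was 48.5 ± 3.65 (SD, n = 3) in ITGA5 fl/fl cells and 23.7 ± 1.47 in Myα5KO cells. *Gclm* to *Gclc*, the modifier to the catalytic chain of 1 enzyme, was 0.605 ± 0.0382 and 0.484 ± 0.0507. *Slc7a11* to *Gss* was 5.42 ± 0.0781 and 2.72 ± 0.892, and *Srxn1* to *Prdx1*, the repair enzyme to its substrate, 0.487 ± 0.0454 and 0.314 ± 0.0516. In all 4 pairs the knockout libraries lay below the controls without overlap.

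*Bach1* to *Nfe2l2*, repressor to activator transcript, was 0.650 ± 0.0525 and 0.530 ± 0.0700, and *Nfe2l2* to *Keap1* 33.0 ± 1.79 and 27.9 ± 0.556, again without overlap. *G6pdx* to *Pgd* went the other way, from 0.481 ± 0.0126 to 0.620 ± 0.0247.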
